A study of Homo sapiens with 10 samples.

Results

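The genes described here are 51 RNA-binding regulators of splicing and their kinases, out of 63152 gene rows in the deposited expression tables. They were chosen by symbol: 19 hnRNP genes, 4 genes of the PTB and poly(C)-binding families, 10 SR protein genes and 5 SR-like genes. The others were 7 regulators labelled tissue-biased here and 6 kinases that phosphorylate SR proteins. That label only names the list, since expression across tissues was not examined. All 51 symbols matched 1 Ensembl gene each, and every one passed a base mean of 100 in every table. A list of 47 other splicing regulators served for comparison.

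The RNA came from C33A, a human cervical carcinoma cell line that is deficient in SWI/SNF. The cells were transfected for 48 h with empty plasmid (pOPRSVI, control), with wild-type BRG1 (BRG1-wt, plasmid pBJ5-BRG1) or BRM (BRM-wt, plasmid pCG-hBrm), or with either ATPase carrying the substitution K798R named in its plasmid (BRG1-mut and BRM-mut), made to abolish ATPase activity. Each of the 5 groups had 2 libraries, 10 in all, made from oligo-dT primed cDNA. The transfection was transient and the share of cells that took up a plasmid is not given, so in these bulk samples a difference in a share of cells and a difference in RNA per cell cannot be told apart. The study describes duplicates of the transfected cells, without saying whether the duplicates were grown and transfected on separate days, so the spread between replicates may be partly technical.

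hnRNP proteins bind nascent transcripts and often favour exon skipping, whereas SR proteins bind exonic enhancers, through RNA recognition motifs, and recruit the spliceosome through domains rich in arginine and serine. CLK and SRPK kinases phosphorylate those domains. Many genes of both families regulate their own output through a poison exon, a conserved cassette exon with a premature stop codon whose inclusion sends the mRNA to nonsense-mediated decay. A poison exon that is included more therefore yields less protein for the same transcription, and mRNA that is decayed is under-represented among the transcripts that are sequenced.

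In 8 genes the listed exon carries the stop codon of an annotated nonsense-mediated decay transcript and is coding in no annotated protein-coding transcript. The sequences of 7 of them are shown first, since they are the switch that the splicing values describe. Each runs on GRCh37 from the first base of the exon through the in-frame stop, which is in capitals, in the reading frame of the annotated decay transcript.
TRA2B (chr3:185649560-185649640, minus strand): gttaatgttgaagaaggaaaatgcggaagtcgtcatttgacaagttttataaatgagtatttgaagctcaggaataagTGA
SRSF6 (chr20:42087793-42087944, plus strand): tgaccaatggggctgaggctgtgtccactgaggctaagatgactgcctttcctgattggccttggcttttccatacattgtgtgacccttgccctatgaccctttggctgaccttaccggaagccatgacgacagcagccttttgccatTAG
SRSF3 (chr6:36567598-36567631, plus strand): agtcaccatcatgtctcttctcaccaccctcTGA
SRSF7 (chr2:38976461-38976488, minus strand): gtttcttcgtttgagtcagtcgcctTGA
SRSF11 (chr1:70696240-70696298, plus strand): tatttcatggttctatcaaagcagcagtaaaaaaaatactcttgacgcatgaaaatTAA
HNRNPH1 (chr5:179048952-179048977, minus strand): cgttggtaacggaaagcgacctgTAA
RBM39 (chr20:34328448-34328519, minus strand): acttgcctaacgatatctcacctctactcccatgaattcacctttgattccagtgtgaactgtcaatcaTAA
The stop lies early in the exon in SRSF7, where it ends at base 28 of 449, in SRSF3, where it ends at base 34 of 456, and in HNRNPH1, where it ends at base 26 of 134. In SRSF11 it ends at base 59 of 62 and in RBM39 at base 72 of 73, so that almost the whole exon is read before translation stops. TRA2B holds it at base 81 of 276 and SRSF6 at base 152 of 268. The eighth such exon, in TRA2A, has its stop at bases 142 to 144 of 301.

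The coding exon with the largest PSI differences among the members, in HNRNPUL1, is shown for comparison, again on GRCh37. It occurs in 3 forms of 222, 192 and 36 bp with a common 3′ end. The longest form is printed, with the bases that the shortest form also has in capitals; the middle form lacks its first 30 bases.
HNRNPUL1 (chr19:41811551-41811772, plus strand): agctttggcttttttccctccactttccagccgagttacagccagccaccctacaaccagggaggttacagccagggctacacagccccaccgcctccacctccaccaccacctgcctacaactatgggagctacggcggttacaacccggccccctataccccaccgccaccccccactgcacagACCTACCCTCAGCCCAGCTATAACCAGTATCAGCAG

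Splicing was measured as PSI, the fraction of an exon's transcripts that include it, in 1 ATPase library beside the control library with the same number. The 8 splicing tables list only exons with a Bayes factor above 10 for that pair. An exon that a table does not list has no value there, and may have been alike in both libraries or too thinly covered. The listed changes were thus chosen for being different and are given as a description, with no test. With 2 libraries against 2, an exact permutation test could not go below p = 0.333. Reads per exon are not given, so the precision of a single PSI is unknown.

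Before the results, some library facts bear on all of them. The replicates of BRM-wt went opposite ways: of 283 exons listed in both, in all genes, 15 (5.3%) had the same direction. The corresponding counts were 132 of 143 (92.3%) for BRG1-mut, 30 of 57 for BRG1-wt and 28 of 49 for BRM-mut. Whether the BRM-wt libraries differ in quality or in their labels was not tested, so PSI values and counts of BRM-wt below may not stand for a common response. The change in PSI moved with exon GC content within each table, with Spearman's rho of 0.43 in BRM-wt replicate 1 (799 exons) and −0.41 in replicate 2 (945 exons), 0.45 and 0.24 in BRG1-mut (699 and 609 exons), 0.3 and 0.16 in BRG1-wt (616 and 388 exons), and −0.22 and −0.09 in BRM-mut (497 and 479 exons). All exons of a table share its 2 libraries, and the tables of one replicate number share a control library. The control PSI of an event was the same value in every table that listed it. The transfected genes were found where the labels place them: SMARCA4 (BRG1) had a base mean of 25802 and 29824 in the BRG1 tables against 3864 and 3076 in the BRM tables, and SMARCA2 (BRM) of 59658 and 75591 in the BRM tables against 12.6 and 9.33. These pooled values separate BRG1 from BRM tables, but cannot tell wild type from mutant or check a single library. Of the epithelial markers, KRT8 had a base mean of 455.7 and 371.4 in the wild-type tables against 134.1 and 90.8 in the mutant tables, and KRT18 of 695.8 and 590.6 against 271.7 and 263.3. EPCAM lay at 22.6 to 30.2, CDH1 at 3.05 to 6.27 and KRT19 at 0 to 1.23. Of the markers of other cells, PTPRC stood at 1529 to 1851, COL1A1 at 19.1 to 36.5 and CD68 at 1.48 to 2.48, and CD3E was at 0.

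The tables listed 37 distinct exons in 21 of the 51 splicing regulator genes, 41.2% of them, and 2969 exons in all genes. Where all genes are taken that reached a base mean of 100 in every table, 17.8% had a listed exon. The share of all genes was 14.0% at a minimum of 10, 4.14% without one and 20.2% at a minimum of 1000, where 21 of 49 members (42.9%) had a listed exon. Of the 28 members with a base mean of 10000 or more, 13 (46.4%) had one, against 22.0% of all genes at that level. By group the members with a listed exon numbered 12 in BRG1-wt (23.5%, against 6.15% of genes), 8 in BRG1-mut (15.7%, against 7.53%), 14 in BRM-wt (27.5%, against 9.43%) and 10 in BRM-mut (19.6%, against 6.39%). When only exons with a PSI change of at least 0.2 counted, the share was 17.6% (9 of 51) against 11.3% of genes over the 4 groups. By group it was then 3 members (5.88%) against 3.76% of genes in BRG1-wt and 4 (7.84%) against 4.7% in BRG1-mut. It was 5 (9.8%) against 6.35% in BRM-wt and 1 (1.96%) against 3.62% in BRM-mut. Taken over the 4 groups, the excess of members above all genes was thus smaller when small changes were left out. By group these are counts of 1 to 5 members, and their difference from the share of all genes was not tested.

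The listed changes of members were small. The median absolute change was 0.1 over the 79 exon values of members and 0.25 over the 5032 of all genes. At base means of 10000 or more it was 0.08 in members and 0.11 in all genes, and from 1000 to 10000 it was 0.225 and 0.205. Most member values, 53 of the 79, came from the higher of these classes. Of the member exons, 9 of 19 had higher PSI in BRG1-wt, 8 of 12 in BRG1-mut, 14 of 20 in BRM-wt and 5 of 11 in BRM-mut, where an exon of both replicates went by its mean. In BRM-wt only 1 of 7 member exons listed in both replicates went the same way in both. For the rest, the sign of the mean only follows the larger change. The overlapping forms of the HNRNPUL1 exon count separately. By table (replicate 1, then 2) PSI was higher in 8 of 15 and 2 of 6 member exons in BRG1-wt, beside 55.5% and 56.2% of the listed exons of all genes. In BRG1-mut it was 5 of 7 and 6 of 10, beside 57.9% and 58.5%. In BRM-wt it was 7 of 11 and 9 of 16, beside 60.2% and 43.0%. In BRM-mut it was 5 of 8 and 2 of 6, beside 49.1% and 49.3%.

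Of the 37 exons, 18 are coding with a length that keeps the frame, 3 are coding with a length that changes it, 2 hold the start codon, 8 hold a premature stop and 6 have no coding sequence. By role they lie in 9 of 19 hnRNP genes, 4 of 10 SR genes, 3 of 5 SR-like genes, 3 of 7 tissue-biased regulators, 1 of 4 PTB and PCB genes and 1 of 6 kinases. The premature-stop exons differed by 0.01 to 0.36 in PSI with a median of 0.08 over 17 values. The coding exons that keep the frame differed by 0.01 to 0.64 with a median of 0.16 over 44 values. The latter include 3 overlapping forms of 1 HNRNPUL1 exon, listed in 5, 5 and 3 tables with large changes. Those forms share reads, so the 2 medians do not show that the classes differ. HNRNPL and HNRNPU, whose proteins the study followed on chromatin, had no listed exon, and neither had HNRNPA2B1. The same holds for SRSF1, SRSF2, SRSF4, SRSF5, SRSF9 and SRSF10 among the SR genes, for PTBP1, PTBP2 and PCBP1, and for CLK2, CLK3, CLK4, SRPK1 and SRPK2 among the kinases.

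**Figure D1:**
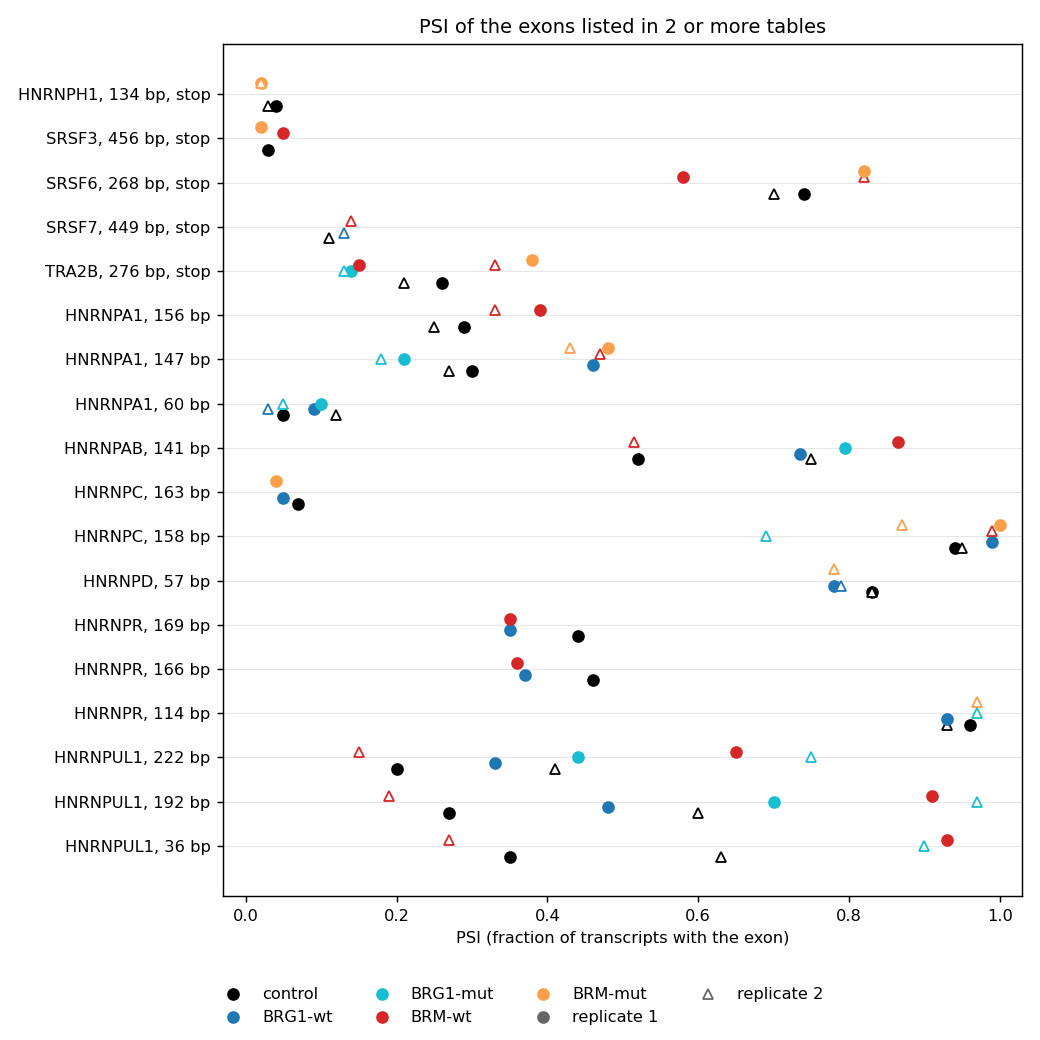
PSI (horizontal axis, fraction of transcripts that include the exon) for the 18 exons of splicing regulator genes listed in 2 or more tables, each row an exon with its length in bp and "stop" for a premature-stop exon. Circles are replicate 1 and open triangles replicate 2, with the control in black, and a missing symbol is a library whose table does not list the exon. HNRNPA1 147 bp lies below control in BRG1-mut and above it in BRM-mut, while the BRM-wt symbols of HNRNPUL1 lie at both ends.

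HNRNPA1 encodes hnRNP A1, a repressor that binds UAG-containing sites. Its exon 3 of 11 (147 bp, GC 51.0%), which keeps the reading frame when it is skipped, was listed in 6 of 8 tables, the most of any member exon. Control PSI was 0.3 in replicate 1 and 0.27 in replicate 2. In BRG1-mut it was 0.21 and 0.18, below both controls. In BRM-mut it was 0.48 and 0.43, above both controls and above both BRG1-mut libraries. BRG1-wt replicate 1 had 0.46 and BRM-wt replicate 2 had 0.47, each on the side of BRM-mut. The controls differed by 0.03, and the differences from control were 0.09 in both BRG1-mut libraries and 0.18 and 0.16 in BRM-mut.

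A further 2 exons of HNRNPA1 were listed. Exon 8 of 11 (chr12:54676863-54677018, 156 bp, GC 59.0%), whose inclusion gives the longer hnRNP A1B protein, had control PSI of 0.29 and 0.25 and reached 0.39 and 0.33 in BRM-wt. It was the only one of 7 member exons listed in both BRM-wt replicates that went the same way in both. Exon 10 (chr12:54678042-54678101, 60 bp) went opposite ways in the replicates of BRG1-wt, from 0.05 to 0.09 and from 0.12 to 0.03, and of BRG1-mut, from 0.05 to 0.1 and from 0.12 to 0.05. These differences of 0.04 to 0.09 stand beside 0.07 between the controls. The annotation names 74 pseudogenes after HNRNPA1, so reads of the gene and of near-identical copies may have been exchanged in mapping. Their part in these PSI values was not tested, and the values of this gene are uncertain for that reason.

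HNRNPUL1 encodes a protein related to hnRNP U. Its exon 14 showed the largest PSI differences of any member. The middle form (chr19:41811581-41811772, GC 62.5%) had PSI of 0.27 and 0.6 in the controls, 0.7 and 0.97 in BRG1-mut, 0.48 in BRG1-wt replicate 1, and 0.91 and 0.19 in BRM-wt. Both BRG1-mut libraries were above both controls, while the BRM-wt libraries lay on opposite sides of them. The 222 bp form had 0.2 and 0.41 in the controls, 0.44 and 0.75 in BRG1-mut and 0.65 and 0.15 in BRM-wt. The 36 bp form (chr19:41811737-41811772) had 0.35 and 0.63 in the controls, 0.9 in BRG1-mut replicate 2, and 0.93 and 0.27 in BRM-wt. The controls alone differed by 0.21 to 0.33 over the 3 forms, which share their last bases and so share reads; they are not independent values.

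HNRNPAB encodes an hnRNP of the A/B type, and its exon 7 of 8 (chr5:177637133-177637273, 141 bp, GC 60.3%) is a frame-keeping cassette. With one pair of flanking exons it went in replicate 1 from 0.52 to 0.89 in BRG1-mut, to 0.8 in BRG1-wt and to 0.98 in BRM-wt. With another pair of flanks it reached 0.7, 0.67 and 0.75. In BRM-wt replicate 2 it went the other way, from 0.79 to 0.51 and from 0.71 to 0.52. The mean control PSI over both events was 0.52 in replicate 1 and 0.75 in replicate 2, a difference of 0.23 that is as large as several of the listed changes.

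HNRNPD encodes AUF1, whose exon 2 (chr4:83292681-83292737, 57 bp, GC 57.9%) distinguishes its isoforms. Its PSI was 0.83 in both controls, 0.78 and 0.79 in BRG1-wt, and 0.78 in BRM-mut replicate 2, so that all 3 listed libraries were slightly below the controls. The 158 bp exon of HNRNPC (chr14:21679565-21679722), a core hnRNP particle gene with 9 annotated pseudogenes, had control PSI of 0.94 and 0.95. It was at 0.99 in BRG1-wt replicate 1 and BRM-wt replicate 2, at 1 and 0.87 in BRM-mut, and at 0.69 in BRG1-mut replicate 2. The BRG1-mut value was the lowest of the libraries with a listed value, and the other BRG1-mut library had none. The 163 bp exon of HNRNPC (chr14:21731826-21731988), which has no coding sequence, was at 0.07 in the control of replicate 1, 0.05 in BRG1-wt and 0.04 in BRM-mut.

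HNRNPR had 3 listed exons. The 166 and 169 bp forms of its exon 2 (chr1:23667345-23667513 for the longer), which hold the start codon, went down in replicate 1 from 0.46 and 0.44 to 0.37 and 0.35 in BRG1-wt and to 0.36 and 0.35 in BRM-wt. Exon 5 (chr1:23660011-23660124, 114 bp) was at 0.96 and 0.93 in the controls, 0.93 in BRG1-wt replicate 1, and 0.97 in replicate 2 of both BRG1-mut and BRM-mut. These last values differ from control by no more than 0.04, near the 0.03 between the controls. In HNRNPA3 the 141 bp exon 8 (chr2:178082433-178082573) was listed once, at 0.31 in control and 0.58 in BRG1-wt replicate 2, and the annotation names 16 pseudogenes after that gene. RALY, an hnRNP C relative, had PSI of 0.82 in control and 0.66 in BRG1-wt replicate 2 for its 48 bp exon 5 (chr20:32661625-32661672), and 0.06 in control and 0.13 in BRM-mut replicate 1 for a 117 bp exon without coding sequence.

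HNRNPH1 encodes hnRNP H1, which binds runs of G. Its 134 bp premature-stop exon (chr5:179048844-179048977) was rare, at 0.04 and 0.03 in the controls and 0.02 in both BRM-mut libraries. Its exon 10 was listed in BRG1-mut replicate 2 in forms of 60 and 51 bp, at 0.67 against 0.64 and 0.43 against 0.38 in control. No reads per exon are given to judge such small differences.

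TRA2B encodes Tra2-beta, an SR-like activator that binds GAA-rich exons and promotes inclusion of its own poison exon. That exon (chr3:185649365-185649640, 276 bp, GC 32.6%) was listed in 5 tables. Control PSI was 0.26 and 0.21. It was 0.14 and 0.13 in BRG1-mut, below both controls, and 0.15 in BRM-wt replicate 1. In BRM-wt replicate 2 it was 0.33 and in BRM-mut replicate 1 it was 0.38, both above both controls. The base mean of TRA2B was 12558 in the table of BRG1-wt, 12267 in BRG1-mut, 12508 in BRM-wt and 13725 in BRM-mut. Minus the median of all genes, its log2 ratio was 0.01 for BRG1-wt against BRG1-mut and −0.04 for BRM-wt against BRM-mut. The ratio was −0.04 for BRG1-wt against BRM-wt and −0.07 for BRG1-mut against BRM-mut.

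SRSF6 encodes an SR protein of intermediate size, and its 268 bp poison exon (chr20:42087793-42088060, GC 50.0%) had control PSI of 0.74 and 0.7, high for a premature-stop exon in this set. It went to 0.58 and 0.82 in the replicates of BRM-wt and to 0.82 in BRM-mut replicate 1. SRSF3, the smallest SR protein, had a PSI of 0.03 for its poison exon 4 (chr6:36567598-36568053, 456 bp) in control, 0.05 in BRM-wt replicate 1 and 0.02 in BRM-mut replicate 1. SRSF7, a zinc knuckle SR protein, had 0.11 in control, 0.13 in BRG1-wt replicate 2 and 0.14 in BRM-wt replicate 2 for its poison exon (chr2:38976040-38976488, 449 bp). A 36 bp coding exon of SRSF7 (chr2:38973286-38973321) was at 0.88 in control and 0.82 in BRG1-wt replicate 2.

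The other premature-stop exons were listed in 1 table each. The one in SRSF11, an SR-related protein gene (chr1:70696240-70696301, 62 bp, GC 30.6%), went from 0.25 to 0.06 in BRG1-wt replicate 1. That of RBM39 (chr20:34328447-34328519, 73 bp, GC 41.1%), a U2AF-related coactivator, went from 0.7 to 0.34 in BRM-wt replicate 2, the largest difference of a premature-stop exon here. That of TRA2A, the paralog of TRA2B (chr7:23561751-23562051, 301 bp, GC 30.2%), went from 0.17 to 0.24 in BRM-wt replicate 2, as did a 312 bp form, while a 90 bp exon without coding sequence went from 0.17 to 0.06. In BRM-wt, BRM-mut and BRG1-wt the listed premature-stop exons included both higher and lower values. In BRG1-mut TRA2B was the only such exon listed.

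Of the 7 member exons listed in both BRM-wt replicates, 6 went opposite ways. The HNRNPUL1 forms among the 6 share reads and are not independent values. Replicate 1 had higher PSI for HNRNPAB (60.3% GC) and for the 222, 192 and 36 bp forms of HNRNPUL1 (60.4%, 62.5% and 52.8%). It had lower PSI for TRA2B (32.6%) and SRSF6 (50.0%), and replicate 2 had the reverse. HNRNPA1 exon 8 (59.0%) was higher in both. The part of GC content in these values was not tested. Without BRM-wt replicate 1, 16 of the 20 member exons of BRM-wt stay listed, and without replicate 2, 11.

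**Figure D2:**
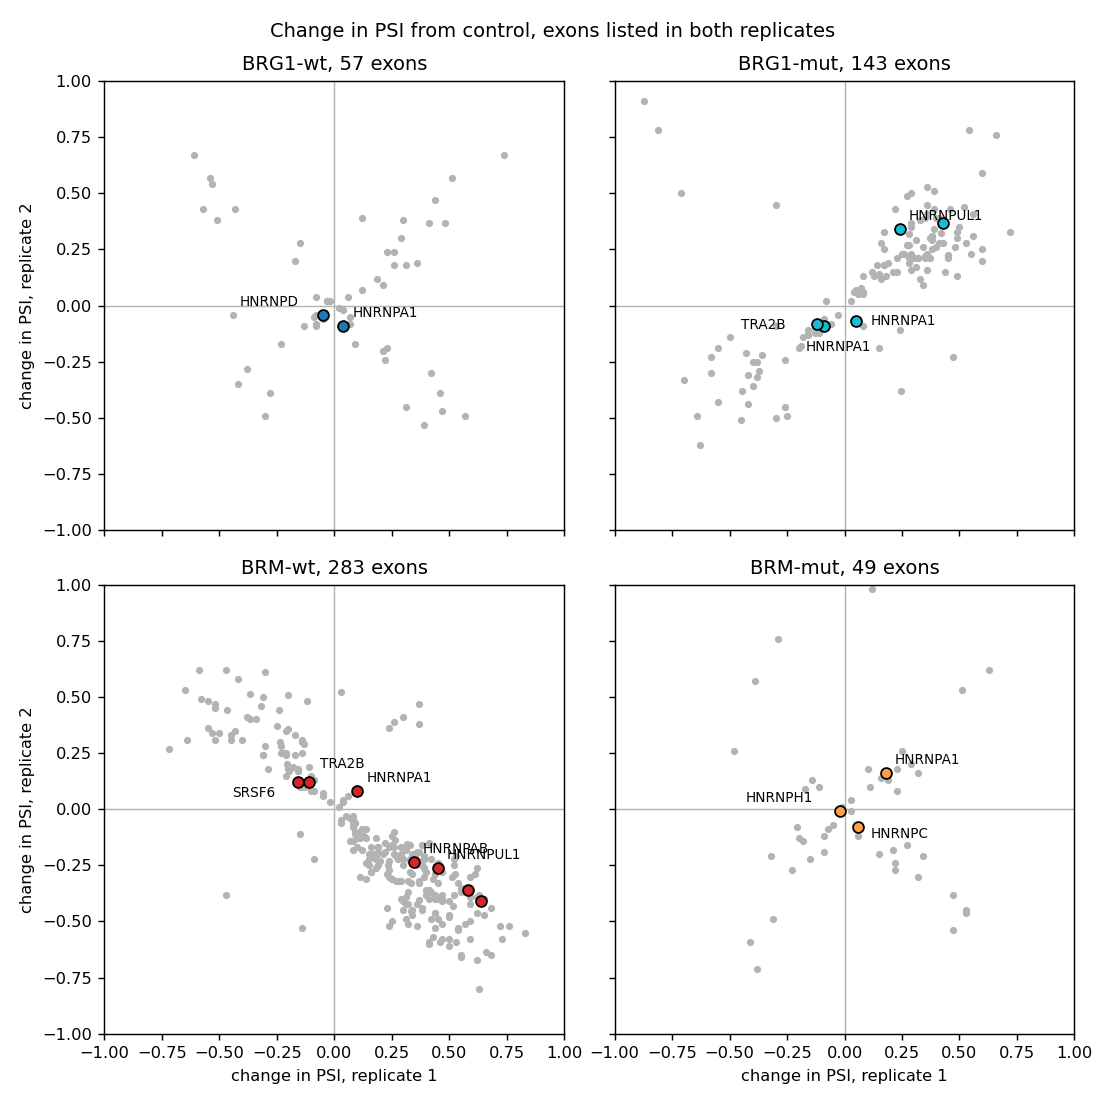
Change in PSI from control in replicate 1 (horizontal) and replicate 2 (vertical) for exons listed in both replicates of a group, one panel a group, with all genes in grey and members in colour (a gene's name stands by its first point, and by each point for HNRNPA1). Exons at the upper right and lower left have the same direction in both replicates, which holds for 132 of 143 BRG1-mut exons but for 15 of 283 BRM-wt exons.

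Of the member exons listed in both replicates, 4 of 5 in BRG1-mut went one way with no overlap between ATPase and control PSI (HNRNPA1 exon 3 and TRA2B lower, both longer HNRNPUL1 forms higher), against 89.5% of all such exons of that group (62.9% higher and 26.6% lower). In BRM-mut it was 2 of 3 (HNRNPA1 exon 3 higher, HNRNPH1 lower), against 46.9% (24.5% higher and 22.4% lower). In BRG1-wt it was 1 of 2 (HNRNPD lower), against 42.1%, of which 21.1% lower. In BRM-wt it was 1 of 7 (HNRNPA1 exon 8 higher), against 4.95%, of which 3.53% higher. A listing in both replicates already asks for a difference in each pair, so these counts describe the exons and are no test. The HNRNPUL1 forms share reads but are counted separately.

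The exons of tissue-biased regulators were listed in 1 table each. MBNL1, a muscleblind protein, had a 36 bp coding exon 7 of 10 (chr3:152173331-152173366) at 0.28 in control and 0.73 in BRG1-mut replicate 1. Its 54 bp exon 6 (chr3:152164493-152164546), which bears on nuclear localization, was at 0.5 in control and 0.38 in BRM-wt replicate 2. A 49 bp exon of MBNL1 (chr3:152165514-152165562) went in BRG1-wt replicate 1 from 0.02 to 0.15 and, with other flanks, from 0.06 to 0.29. CELF1, a CUG-binding protein, had an exon without coding sequence at 0.5 in control and 0.25 in BRM-mut replicate 2. TIAL1, which binds U-rich introns, had one at 0.1 and 0.24 in BRM-wt replicate 2.

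Among the kinases, CLK1 was listed in 1 table. Its exon 4 (chr2:201724848-201724938, 91 bp), whose skipping yields a protein without the kinase domain, was at 0.51 in control and 0.72 in BRM-wt replicate 1. PCBP2, a poly(C)-binding protein, had 2 exons listed in BRG1-wt replicate 1, at 0.01 against 0.07 in control for the 33 bp exon (chr12:53849245-53849277) and at 1 against 0.99 for the 117 bp exon (chr12:53849669-53849785). Both PCBP2 exons also overlap another annotated gene.

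Expression levels were taken from the base mean, the authors' mean of normalised counts over the 2 ATPase and 2 control libraries of a table. It is 1 value per table, with no value per library, so no error can be given. Averaged over the 4 tables, 47 of 51 members were above the median gene (1324 among 11646 genes that reached 100 in every table), and the member median was 11364. HNRNPA2B1, a partner of hnRNP A1 in the hnRNP particle, had the highest mean at 82562, followed by HNRNPU (40337), SRRM2 (34455), HNRNPK (34362) and HNRNPH1 (32023). MBNL2 (556), CLK4 (846), PTBP2 (1116), CLK2 (1190) and CLK3 (1398) were lowest. HNRNPL stood at 4235 and HNRNPA1 at 11275.

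Levels were also divided by the kb of exonic sequence, counted over every annotated exon of a gene and not over the mRNA expressed. Genes with much annotated sequence, such as HNRNPU (22512 bp) and CLK3 (19697 bp), rank lower per kb than by base mean. The order and the medians by role therefore depend on the annotation. The order began with HNRNPA2B1 (6550 per kb), HNRNPK (6030), PCBP1 (5900), HNRNPAB (5370) and SRSF2 (4780). It ended with CLK4 and MBNL2 (both 107), CLK3 (71.0) and PTBP2 (55.5), the neuronal relative of PTBP1 (1510). The median was 2480 per kb for hnRNP genes, 2380 for SR genes, 1280 for SR-like genes, 1070 for PTB and PCB genes, 787 for tissue-biased regulators and 386 for kinases, against 260 for all genes. Neighbours in this order mostly could not be told apart, since the ranges over the 4 tables failed to overlap for 12 of 50 neighbouring pairs.

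**Figure D3:**
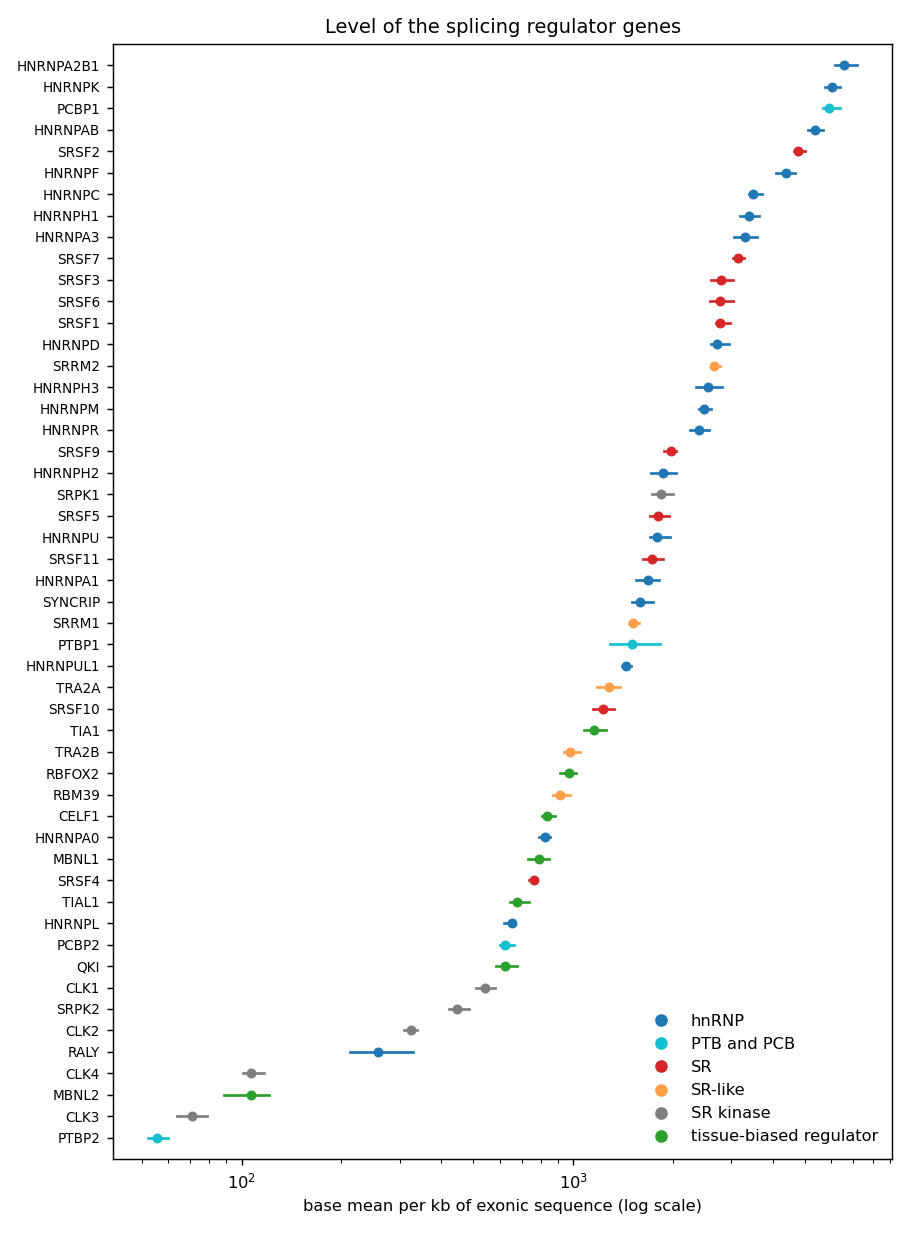
Base mean per kb of exonic sequence (log axis) for the 51 genes in order of level, coloured by role. The point is the mean over 4 tables and the line runs from the lowest to the highest table. Most of the highest genes are hnRNP and SR genes, with PCBP1 at rank 3. The lowest are RALY (an hnRNP gene), CLK4, MBNL2, CLK3 and PTBP2, while the kinase SRPK1 is at rank 21. The longest lines are those of RALY, PTBP1 and MBNL2.

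Levels were compared between tables as the log2 ratio of base means, minus the median of 11646 genes, with a fold counted past 0.3 on this log2 scale. Both tables of a ratio hold the same 2 control libraries, so a ratio understates the difference between the ATPase libraries, and it has no replicate check and no test. For BRG1-wt against BRG1-mut 3 of 51 members were past the fold, beside 10.9% of all genes, with 1 higher (1.86% of genes) and 2 lower (9.06%). For BRM-wt against BRM-mut it was 1 member, higher, beside 9.79% of genes (9.69% higher). For BRG1-wt against BRM-wt it was 0 members, beside 0.292%, and for BRG1-mut against BRM-mut 3, all higher, beside 22.3% (22.1% higher). In none of the 4 pairs was the share of members past the fold in either direction above that of all genes. The median absolute log2 ratio of members was 0.05, 0.05, 0.03 and 0.11 in these pairs, and 0.07, 0.07, 0.04 and 0.12 over all genes. It was below 0.1 for 43, 47, 51 and 22 of the 51 members, beside 64.2%, 64.5%, 86.5% and 39.3% of all genes.

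The ratios moved with the GC content of the gene's exons. Spearman's rho over 11431 genes was −0.66 for BRG1-wt against BRG1-mut, 0.67 for BRM-wt against BRM-mut, 0.49 for BRG1-wt against BRM-wt and 0.87 for BRG1-mut against BRM-mut, and over the 51 members it was −0.54, 0.57, 0.6 and 0.67. Members were poorer in GC than other genes, with a median of 41.0% against 46.6%. The part of GC content in a ratio was not tested. As a further description, each ratio is also given after subtraction of the median ratio of genes of like GC content. Members past the fold then numbered 2, 1, 0 and 1, beside 3.91%, 3.51%, 0.245% and 6.22% of genes.

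MBNL2, a muscleblind relative of MBNL1, had the highest ratio of any member in both comparisons of a wild type with its mutant. Its base mean was 616 in the table of BRG1-wt and 628 in BRM-wt, against 460 in BRG1-mut and 518 in BRM-mut. The centred log2 ratio was 0.39 for BRG1-wt against BRG1-mut and 0.37 for BRM-wt against BRM-mut, and after GC subtraction it was 0.34 and 0.42. Between the wild types it was −0.07 and between the mutants −0.08. With 38.0% GC it lay above genes of like GC content in both. The epithelial keratins KRT8 and KRT18 were also higher in the wild-type tables, and their part in this ratio was not tested.

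RALY had base means of 1897 in BRG1-wt, 2468 in BRG1-mut, 1794 in BRM-wt and 1597 in BRM-mut, so that BRG1-mut stood apart on the high side. Its centred log2 ratio was −0.41 for BRG1-wt against BRG1-mut, 0.26 for BRM-wt against BRM-mut and 0.72 for BRG1-mut against BRM-mut, and after GC subtraction −0.34, 0.2 and 0.54. PTBP1, a repressor that binds pyrimidine tracts, had a similar order with 11185, 13777, 10771 and 9722 in those tables. Its centred log2 ratios of −0.33, 0.24 and 0.6 became −0.05, 0.01 and 0 after subtraction, and with 60.0% it had the highest GC content of the members. CLK3 had 0.39 for BRG1-mut against BRM-mut and 0.26 after GC subtraction.

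**Figure D4:**
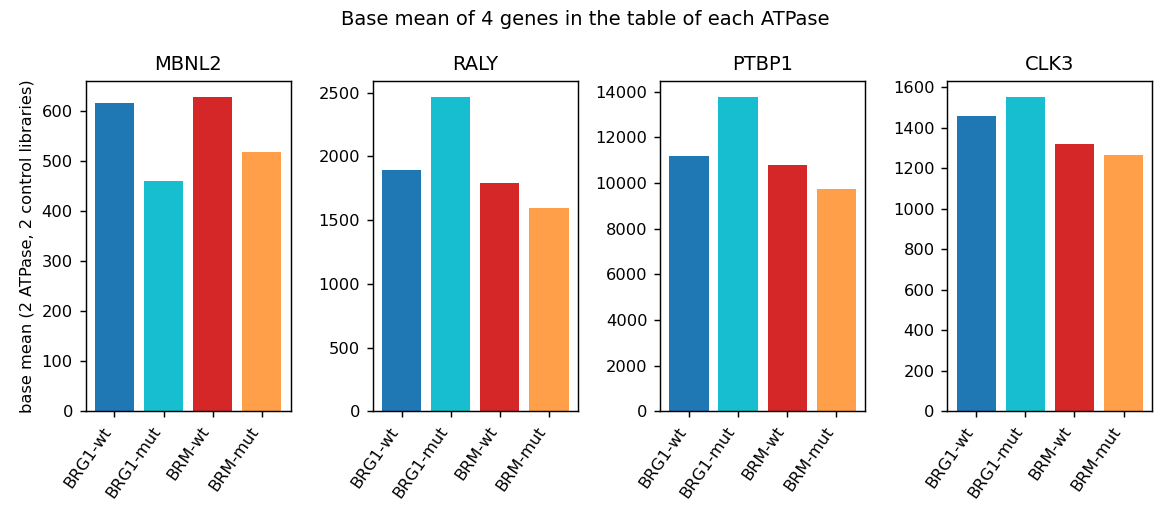
Base mean in the table of each ATPase (bars from 0, each the authors' mean over 2 ATPase and 2 control libraries, with no error available) for MBNL2, RALY, PTBP1 and CLK3. MBNL2 is higher in both wild-type tables (616 and 628) than in both mutant tables (460 and 518), and RALY, PTBP1 and CLK3 are highest in BRG1-mut and lowest in BRM-mut.

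The other ends of the ratios were small. For BRG1-wt against BRG1-mut the highest after MBNL2 were TRA2A, HNRNPH2 and HNRNPA1 (each 0.1), and PCBP1 (−0.15) was the lowest after RALY and PTBP1. For BRM-wt against BRM-mut HNRNPA2B1, HNRNPH3, HNRNPU and SRSF5 were lowest, each at −0.08. Between the wild types all 51 members lay from −0.08 (CLK4) and −0.07 (MBNL2) to 0.09 (HNRNPF, CLK3 and CLK2). Between the mutants HNRNPH3 (−0.17), HNRNPH2 (−0.15), HNRNPA1 and HNRNPA3 (each −0.14) were lowest. HNRNPL lay between −0.03 and 0.12 and HNRNPU between −0.11 and 0.03 in the 4 pairs.

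**Figure D5:**
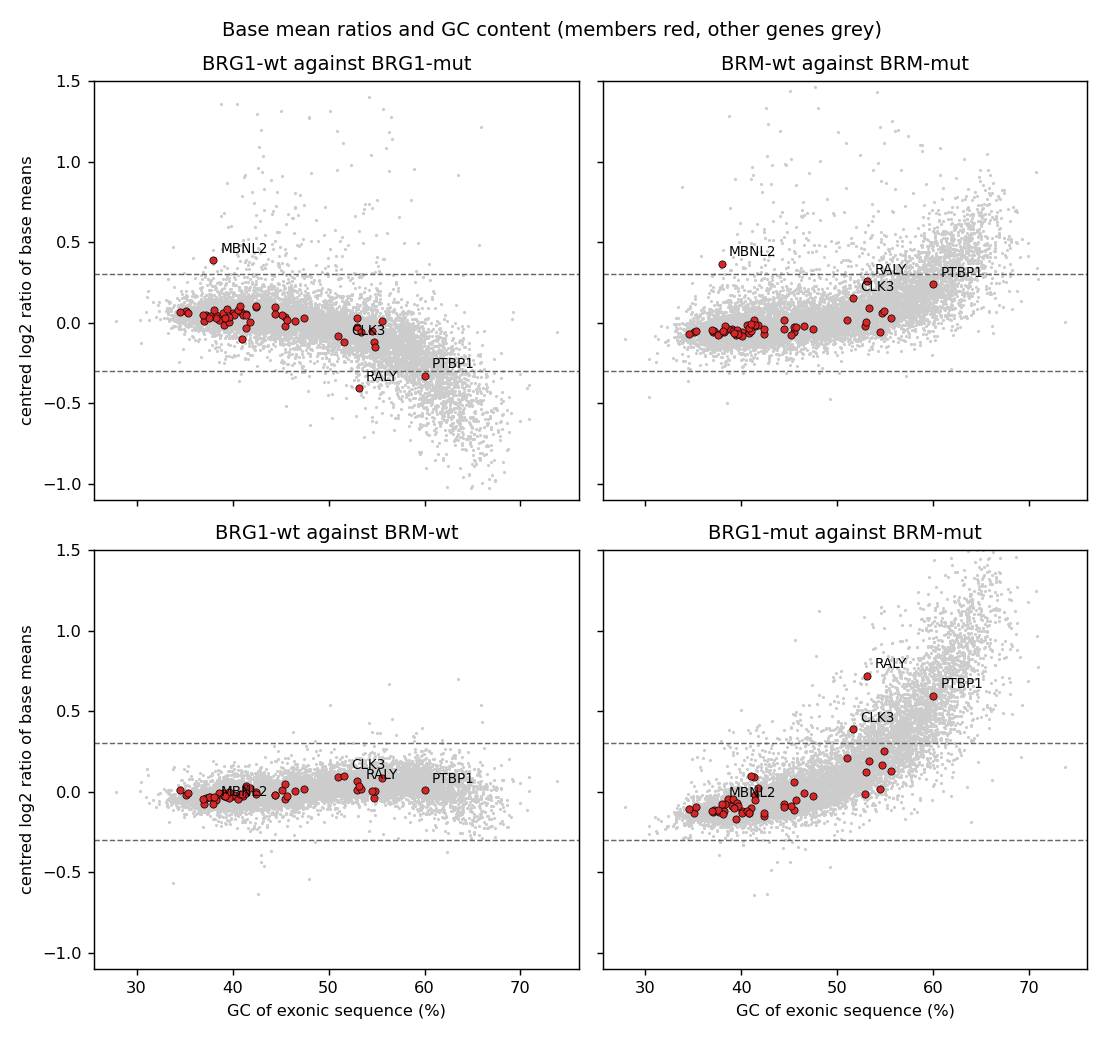
Centred log2 ratio of base means (vertical) against GC of exonic sequence in percent (horizontal) for 4 pairs of tables, with members in red, other genes in grey and dashed lines at the fold of 0.3. Genes beyond the vertical range are not drawn. PTBP1 lies within the cloud of genes of its GC content, RALY beyond it in the pairs with BRG1-mut, and MBNL2 above it in both comparisons of a wild type with its mutant.

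The 47 other regulators of splicing served as a comparison, of which 36 passed the base mean of 100. A listed exon in any group was found in 13 of these 36 (36.1%), beside 41.2% of the members and 17.8% of all genes. By group it was 5 in BRG1-wt (13.9%), 8 in BRG1-mut (22.2%), 9 in BRM-wt (25.0%) and 4 in BRM-mut (11.1%), so that in BRG1-mut the share was above the 15.7% of members and in the others below theirs. The difference between these lists was not tested. Past the fold were 4, 1, 0 and 7 of the 36 in the 4 pairs in the order above, beside the 10.9%, 9.79%, 0.292% and 22.3% of all genes, and 0, 0, 0 and 1 after GC subtraction. KHDRBS1, which encodes SAM68 and was followed on chromatin by the study, had no listed exon and log2 ratios of −0.01, −0.02, 0.01 and 0.02.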

How the data were processed

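RNA from 10 C33A libraries was sequenced on an Illumina instrument. Reads were mapped by the authors to GRCh37 with TopHat2 2.0.4 and counted per gene with HTSeq 0.6.1, duplicates included. The base mean deposited by the authors is a score, their DESeq2 mean of normalised counts over 2 ATPase and 2 control libraries. The deposited PSI is a fraction, estimated with MISO for 1 ATPase library against the control of the same replicate number, and listed only above a Bayes factor of 10. The expression tables also hold the authors' own fold changes and p-values, and the splicing tables their Bayes factors; none of these was used. The study's methods give 1 sequencing depth for all libraries; reads per library and per exon are not in the values used here.

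Members, lists and the rule for naming genes (exons listed in 2 or more tables, a PSI change of 0.4 or more, the 5 highest and lowest levels, the 3 highest and lowest ratios per pair, genes the study followed by precipitation, and premature-stop or autoregulated exons) were chosen with earlier results of these data known. Single-table exons outside that rule were named after their values were seen. Exons were matched by exact coordinates to GENCODE v44 lifted to GRCh37, and sequences come from the GRCh37 genome. The sequence of 1 HNRNPA1 exon is not reported here. A distinct exon is 1 set of coordinates and strand, and events with other flanks were averaged. Base mean ratios used genes that reached a base mean of 100 in every table, centred on their median. GC subtraction used 50 bins of equal gene number. Calculations used Python 3.11.15, pandas 2.3.3, numpy 2.4.6 and scipy 1.17.1 and were tested on simulated data. Alternatives covered the PSI change (0.2), replicates left out, the replicate block, the methods' exon rules, base mean filters (10 and none), a threshold of 0.5 and centring. Base mean minimums of 1000 and 10000, and the share of genes with a PSI change of at least 0.2, were added after seeing the data. No test was run, because the base means are pooled and the listed exons were selected.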

Additional observations from a re-analysis of the deposited data

Results flagged for a closer look

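The 147 bp exon 3 of HNRNPA1 had lower PSI than control in every BRG1-mut library and higher PSI in every BRM-mut library. The mean change over the 2 replicates was −0.09 in BRG1-mut and 0.17 in BRM-mut. The difference between the groups was not tested. By the rule of the study's methods that discards exons with opposite effects in different groups, this exon would be left out. The annotation names 74 pseudogenes after HNRNPA1, and their part in these values was not tested. The exon was also higher in the single listed library of BRG1-wt and of BRM-wt.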

How the results depend on the processing

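For BRG1 (wild type, then mutant) and BRM (wild type, then mutant), the listed member exons were 19, 12, 20 and 11. They became 3, 6, 7 and 1 with a PSI change of at least 0.2. Such a change was found in 29.1% of the member values and 62.4% of the values of all genes. When both replicates had to list the exon, 2, 5, 7 and 3 member exons stayed. Of the 947, 1165, 1461 and 927 listed exons of all genes, 57, 143, 283 and 49 stayed. Under the exon rules of the study's methods (no opposite directions, no short forms) the member exons became 12, 3, 11 and 5. Leaving out a replicate gave 6 to 15, 7 to 10, 11 to 16 and 6 to 8 exons, and 5 to 9, 5 to 6, 8 to 11 and 6 to 7 member genes against 12, 8, 14 and 10. Exons with higher PSI numbered 9, 8, 14 and 5, and 3, 5, 6 and 0 with a PSI change of at least 0.2. Leaving out a replicate gave 2 to 8, 5 to 6, 7 to 9 and 2 to 5 of them. Without the replicate block, the counts were 9, 8, 14 and 5, which follows from the construction, since a mean of paired differences equals the difference of means. The replicate differences of ATPase and control PSI correlated at −0.34, −0.01, −0.84 and −0.3 over the exons listed in both replicates. Those exons were selected for a difference within each pair, so the correlations cannot settle whether the numbers pair the libraries, and the labels give only a shared number. With the control of the other replicate number, 2 of 8, 5 of 9, 8 of 9 and 4 of 7 exons with a value had higher PSI. Base mean filters of 10 and none could not change the member counts of listed genes, since every member reached 100 in every table. At 1000, 49 of 51 members stayed and the counts were as before. The share of all genes with a listed exon in any group was 17.8% at 100. It was 14.0% at 10, 4.14% without a filter and 20.2% at 1000. Members past the fold became 0 for BRG1-wt against BRG1-mut and 0 for BRM-wt against BRM-mut at a threshold of 0.5, 0 for BRM-wt against BRM-mut without centring, and 1 for BRG1-mut against BRM-mut after GC subtraction. The centring shifted the log2 ratios by −0.093 to 0.045. Leaving out a library was not possible for base means, which are pooled.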
